A study of Mus musculus with 3 samples.

Results

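The genes described here are 32 genes of chromatin remodelling complexes and their co-factors other than the INO80-specific subunits, out of 55364 nuclear-encoded genes in the count tables. They were listed by the complexes they belong to: the shared AAA ATPases Ruvbl1 and Ruvbl2 with the actin-related Actl6a, the INO80-associated factor Yy1, 6 subunits of SRCAP and TIP60-p400, the histone variant gene H2afz, 13 SWI/SNF subunits, the ISWI genes Smarca5 and Bptf, and 6 CHD and histone deacetylase genes. All 32 had a row in each of the 3 libraries. The libraries are single nanowells of heart cells from tamoxifen-treated mice, 1 library per day of treatment. Days 1 and 2 carry the genotype labels D1_INO80_OE and D2_INO80_OE. The day 3 library carries D3_INO80_OE and D3_Ctrl together, its files do not say which wells belong to which genotype, and day 3 wells were split by their own Ino80 level: Ino80-high wells at 1000 or more counts per 1000000 nuclear-encoded counts (CPM), and Ino80-low wells under 100 CPM. Treatment with tamoxifen is common to every group, and Ino80-low wells are not an untreated control. In the title stands Myh6-MCM, an inducible Cre that tamoxifen switches on under a cardiomyocyte myosin promoter, with Ino80fl/fl, a floxed allele, whereas the genotype labels read overexpression (OE) and the design text speaks of Ino80 induction. The cell type label reads adult cardiomyocyte, but wells with markers of macrophages, fibroblasts, endothelial and erythroid cells are present too. Neither a closer age nor the number of the mice or the number pooled per library is given in the sources used here, and day 0 was not analysed here.

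Chromatin remodellers are complexes that use ATP to slide, evict or exchange nucleosomes. SRCAP and TIP60-p400 place the variant histone H2A.Z, which INO80 can remove from nucleosomes, and both share the Ruvbl ATPases with INO80. SWI/SNF complexes are built around the alternative ATPases Smarca4 (BRG1) and Smarca2 (BRM), ISWI complexes space nucleosomes, and Chd3 or Chd4 joins Hdac1 and Hdac2 in the repressive NuRD complex. In mouse heart, BRG1 is known for its need in development and for its action on the cardiac myosin heavy chain genes in the stressed adult.

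Of 3376 wells kept, 2034 lay outside clusters with non-cardiomyocyte markers and form the compartment used for the comparisons, with 513, 628 and 893 wells on days 1, 2 and 3. This compartment is defined by exclusion, its main clusters have no cell type name, and ventricular cardiomyocyte genes are also high in macrophage-like wells (a sum over 10 markers of 93030, 93780 and 97490 CPM on days 1, 2 and 3, where the compartment without atrial-like wells has 116900, 118400 and 114700 CPM). The main cluster of day 1 had the T or NK cell markers Trbc2 and Ccl5 raised, and 2 pericyte or smooth muscle markers. That of day 2 had the B or plasma cell marker Igkc raised. Both clusters were short of the 3 markers needed for a name. What RNA shared between wells adds to a member's level was not tested. Library totals lay between 452 and 487 times 1000000 counts, and the median well held 316120, 349795 and 360693 counts on days 1, 2 and 3. Ino80 stood at 2901, 5165 and 1195 CPM in the summed compartments of days 1, 2 and 3, and at 3038 CPM in the 405 Ino80-high wells of day 3 against 18.2 CPM in the 440 Ino80-low wells. The median mitochondrial share of counts was 40.7%, 44.3% and 21.3% by day, so CPM was taken over nuclear-encoded genes. Libraries shared 247 to 278 well barcodes pairwise, and whether any count is misassigned through them was not tested. Each group is 1 library or a set of wells of 1 library, wells are not replicates, and no p-value is given. Intervals of levels and ratios cover counting error only, and those of detection shares cover only the drawing of wells within 1 library. A gene is called apart at 1.5-fold when its mean over both groups is at least 5 CPM.

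Sequences just upstream of 5 genes on which the results turn are shown because most RefSeq promoters of this group (GRCm38.p6) hold the GC box and these genes differ in how often. Each runs 5′ to 3′ on the gene's strand and lies within 250 bases before the annotated start, clear of annotated exons, with the GC box GGGCGG and the CCAAT box on either strand in capitals.
H2afz, chr3:137864375-137864486, + strand: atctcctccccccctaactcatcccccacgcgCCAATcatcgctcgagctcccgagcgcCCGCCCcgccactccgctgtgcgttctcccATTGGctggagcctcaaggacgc
Smarca4, chr9:21615919-21616168, + strand: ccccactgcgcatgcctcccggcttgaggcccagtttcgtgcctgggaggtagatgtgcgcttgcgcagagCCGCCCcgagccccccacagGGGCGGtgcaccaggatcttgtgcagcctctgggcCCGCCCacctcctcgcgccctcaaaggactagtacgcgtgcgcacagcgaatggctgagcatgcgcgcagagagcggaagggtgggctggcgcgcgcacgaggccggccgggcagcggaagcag
Chd4, chr6:125095731-125095980, + strand: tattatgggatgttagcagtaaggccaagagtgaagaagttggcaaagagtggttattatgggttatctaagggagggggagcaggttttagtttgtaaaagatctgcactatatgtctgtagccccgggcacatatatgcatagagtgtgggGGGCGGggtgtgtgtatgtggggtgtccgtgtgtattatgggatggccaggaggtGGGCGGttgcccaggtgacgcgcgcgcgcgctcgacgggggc
Smarcb1, chr10:75921618-75921864, - strand: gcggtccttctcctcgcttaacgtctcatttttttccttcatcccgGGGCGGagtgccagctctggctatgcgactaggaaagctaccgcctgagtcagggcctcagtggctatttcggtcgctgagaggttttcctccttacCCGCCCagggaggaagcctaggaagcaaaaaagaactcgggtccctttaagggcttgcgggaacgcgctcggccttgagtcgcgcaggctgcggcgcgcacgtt
Ruvbl1, chr6:88465159-88465408, + strand: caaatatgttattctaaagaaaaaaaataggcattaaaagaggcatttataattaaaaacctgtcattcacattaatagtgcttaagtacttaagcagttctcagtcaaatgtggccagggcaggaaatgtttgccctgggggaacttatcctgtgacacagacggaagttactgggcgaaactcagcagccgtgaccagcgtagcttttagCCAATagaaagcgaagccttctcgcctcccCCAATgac
The GC box was found in the 250 bases before the start in 21 of the 26 members with a RefSeq promoter entry, 80.8%, against 35.4% of 27025 genes. A CCAAT box was present in 7 of 26 members, 26.9%, against 37.5% of genes. A gene was counted if any of its promoter entries held the motif, and the 26 members have 32 entries. Both strands were searched, the motifs can share end bases, and a match is a stretch of letters, not a measured site. H2afz carries 2 CCAAT boxes and 1 GC box in the 112 bases shown. In the stretches shown, Smarca4 has 3 GC boxes, Chd4 and Smarcb1 have 2 GC boxes each, and Ruvbl1 has 2 CCAAT boxes and no GC box. Chd4 is among the 7 members counted with a CCAAT box, though the stretch shown holds none.

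Chd4, the NuRD ATPase, and Smarca4, the SWI/SNF ATPase, had the most counts. Over all compartment wells and per kilobase of annotated exon, the order was led by Znhit1, a SRCAP subunit that binds H2A.Z, at 29.3 CPM per kb, followed by Smarca4 at 22.8, H2afz at 20.2, Chd4 at 19.9, the SRCAP actin-related subunit Actr6 at 15.6 and the PBAF subunit Pbrm1 at 12.8 CPM per kb. H2afz and Chd4 are neighbours in that order that differ by less than their change between libraries. At the other end stood the ATPase gene Srcap at 0.129, Ruvbl2 at 0.254 and the acetyltransferase gene Kat5 at 0.283 CPM per kb, all below the next gene, Ep400, at 0.907 CPM per kb. Ruvbl1 stood at 9.19 CPM per kb, although Ruvbl1 and Ruvbl2 proteins form a joint ring. In the GENCODE M21 annotation, other genes overlap 100% of the last 500 exonic bases of Srcap, 85.2% of Kat5, 27.6% of Ruvbl2, 90.4% of Actl6a, 49.8% of Smarcd3 and 18.4% of Arid2, and none of the other 26 members. Since the strand setting is not given in the sources used here, reads of these overlapping genes cannot be told apart and their low levels are uncertain. A single well held 48.2%, 45.6% and 12.6% of the Srcap counts on days 1, 2 and 3, and 30.1%, 63.1% and 41.4% of the Kat5 counts, so ratios of these genes rest on few wells.

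**Figure D1:**
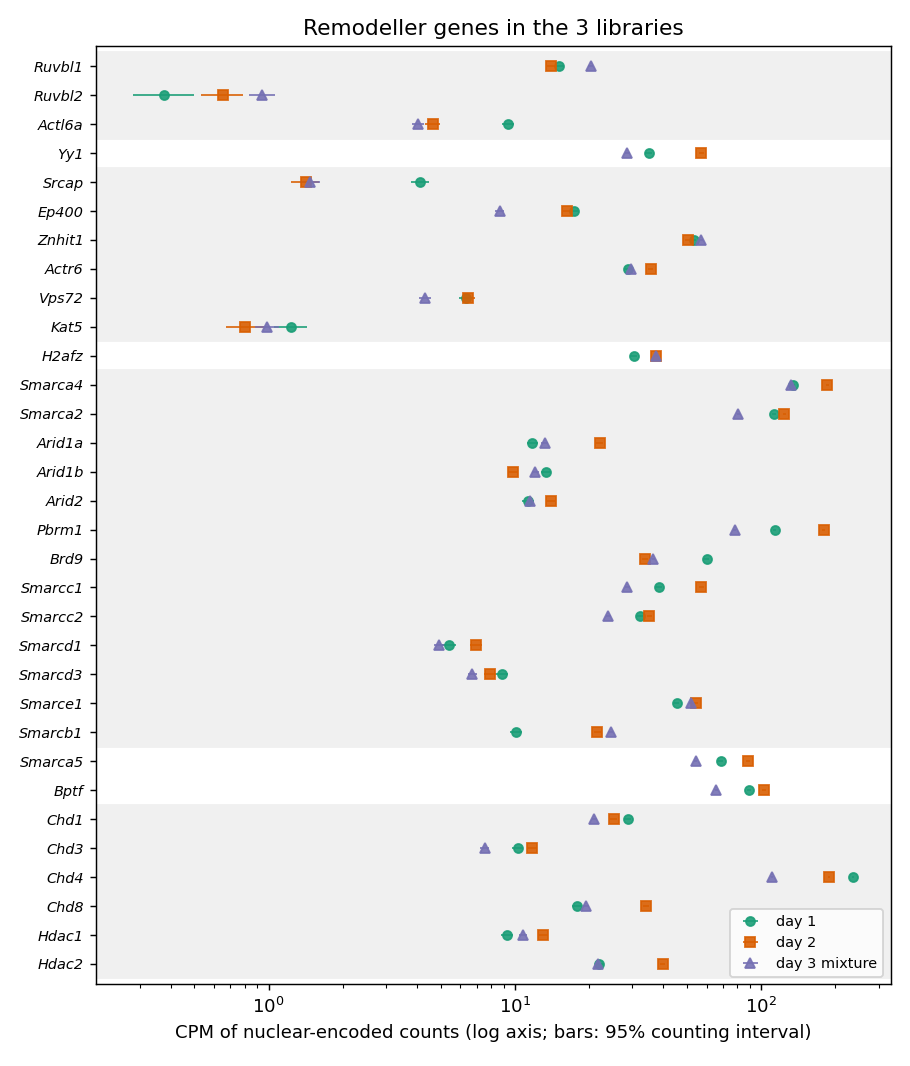
CPM of the 32 remodeller genes (rows, grouped by complex in alternating bands) in the compartment wells of the day 1, day 2 and day 3 libraries, on a log axis with 95% counting intervals. Chd4 and Smarca4 lie furthest to the right, Ruvbl2, Srcap and Kat5 furthest to the left, and Smarcb1 is lowest on day 1.

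By library, the clearest courses were those of Smarcb1, a core SWI/SNF subunit, and Chd4. Smarcb1 had 10.1, 21.6 and 24.5 CPM on days 1, 2 and 3 (95% counting intervals 9.58 to 10.7, 20.9 to 22.3 and 23.9 to 25.1), lowest on day 1 with no overlap of intervals. After thinning each well to 30000 nuclear counts, it was detected in 8.95%, 16.4% and 16.7% of wells on days 1, 2 and 3. Chd4 ran the other way, with 237, 188 and 111 CPM and detection in 76.1%, 75.2% and 61.1% of thinned wells. Ep400, the ATPase of TIP60-p400, had 17.3, 16.3 and 8.67 CPM on days 1, 2 and 3, lowest in the day 3 mixture. Brd9, a subunit of non-canonical SWI/SNF, had 60.2, 33.7 and 36.6 CPM, highest on day 1.

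In day 2 against day 1, 29 members were measured, and 6 were at least 1.5-fold higher, a share of 20.7% that equals the 20.7% of all 8318 genes measured. The compartments compared lay in different clusters: 96.2% of day 2 wells were in a cluster that held 35.7% of day 1 wells, while 57.3% of day 1 wells were in another, and the atrial marker sum was 209 CPM on day 2 against 7139 CPM on day 1 (0 of 8 markers at 0 in either). The part of this in the values was not tested. The 6 were Smarcb1 (log2 ratio 1.10), the CHD ATPase Chd8 (0.93), the BAF subunit Arid1a (0.91), Hdac2 (0.85), Yy1 (0.71) and Pbrm1 (0.66). Yy1 had 57.2 CPM on day 2 against 34.9 CPM on day 1, and was detected in 38.5% of thinned day 2 wells against 26.8% of day 1 wells. Hdac2 had 39.8 CPM on day 2 and 22.0 CPM on day 1. Arid1a had 22.1 CPM on day 2 and 11.8 CPM on day 1, whereas its alternative Arid1b had 9.84 CPM on day 2 and 13.4 CPM on day 1, a log2 ratio of -0.45 that did not reach the call. Members at least 1.5-fold lower were Actl6a (-1.02) and Brd9 (-0.84), 2 of 29, against 9.06% of all genes. Actl6a had 1 well with 52.0% of its day 1 counts and 1 well with 41.6% of its day 2 counts, and over all kept wells its log2 ratio turned to 0.39. With median-of-ratios scaling, which sets the median gene to no change, the counts became 4 higher and 3 lower, against 14.4% and 13.4% of all genes. Smarcb1 was past 1.5-fold in each of 10 alternatives, whereas Pbrm1 was past it in 6 and Yy1 in 8. The median member stood at 0.26, against 0.15 for all genes measured.

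In the day 3 mixture against day 1, which shares the day 1 wells with the preceding comparison, 1 of 29 members was at least 1.5-fold higher, against 13.4% of all 8090 genes. It was Smarcb1 at a log2 ratio of 1.28. At least 1.5-fold lower were 4 members, Actl6a (-1.21), Chd4 (-1.09), Ep400 (-0.999) and Brd9 (-0.72), against 21.6% of all genes. The direction of the whole table depends on the scaling here: with the total of all counts, mitochondrial genes included, the median of all genes moved to 0.27 from -0.12, 28.5% of genes were higher and 7.86% lower, and 4 members were higher and 2 lower. Chd4 and Ep400 lay below the median of all genes in both, at -0.72 and -0.63 with that scaling, and in wells with 25 to 35% mitochondrial counts they stood at -0.40 and -0.19, short of the call. Brd9 was not past the call with that scaling (-0.35) and changed sign in those wells (0.39). Leaving out the leading well of each side brought Actl6a to -0.57.

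Within day 3, Ino80-high wells were compared with Ino80-low wells of the same library. Of 26 members measured, 7 were at least 1.5-fold higher in Ino80-high wells, 26.9%, against 39.2% of all 7912 genes, and 1 was at least 1.5-fold lower, against 20.7% of all genes. The group as a whole was thus no more apart than the background: its median log2 ratio was 0.20, against 0.28 for all genes measured. Ino80-high wells also had a lower ventricular marker sum (76920 against 139400 CPM, 0 of 10 markers at 0 in either), a higher macrophage marker sum (195 against 39.5 CPM, 0 of 10 at 0), a higher erythroid marker sum (660.4 against 121 CPM, 0 of 5 at 0), a higher endothelial marker sum (1138 against 490 CPM, 0 of 9 at 0), a higher atrial marker sum (2536 against 1143 CPM, 0 of 8 at 0) and a lower median depth (237592 against 329324 nuclear counts), and 99.0% of them lay in 1 cluster while 96.6% of Ino80-low wells lay in another. The part of these differences in the values of the members was not tested.

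Chd1, an ATPase found with transcribing RNA polymerase II, was the furthest apart of the members that passed the filter of 5 CPM. It had 36.4 CPM in Ino80-high wells against 10.8 CPM in Ino80-low wells (95% counting intervals 35.3 to 37.5 and 10.3 to 11.3), a log2 ratio of 1.75. The 48 wells with Ino80 in between had 19.8 CPM. Detection in thinned wells was 22.4% of 401 Ino80-high wells against 9.38% of 437 Ino80-low wells, with intervals of 18.5 to 26.9% and 6.82 to 12.5% that do not overlap.

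H2afz, which encodes H2A.Z, had 59.0 CPM in Ino80-high wells against 23.3 CPM in Ino80-low wells, a log2 ratio of 1.34, with 33.9 CPM in the wells between. It was detected in 48.9% of thinned Ino80-high wells against 33.4% of Ino80-low wells. The subunits that deposit H2A.Z did not follow it as a set: Znhit1 had 58.3 CPM in Ino80-high wells and 56.0 CPM in Ino80-low wells, Actr6 had 25.3 CPM and 30.7 CPM in the same order of groups, and Ep400 had 7.94 CPM in Ino80-high wells and 7.69 CPM in Ino80-low wells. Vps72, an H2A.Z chaperone, had 7.24 CPM in Ino80-high wells and 2.35 CPM in Ino80-low wells, below the filter of 5 CPM on the mean, and 1 well held 24.6% of the counts of the Ino80-high wells. Srcap (2.89 against 0.518 CPM) and Kat5 (1.90 against 0.425 CPM) were also below the filter, with the overlaps given above.

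Ruvbl1 had 27.2 CPM in Ino80-high wells and 16.7 CPM in Ino80-low wells, a log2 ratio of 0.71. Its partner Ruvbl2 stood at 0.94 CPM in Ino80-high wells and 1.02 CPM in Ino80-low wells, and Actl6a at 4.57 CPM and 4.01 CPM in the same order of groups, both below the filter. Yy1 differed little, with 27.7 CPM in Ino80-high wells and 28.6 CPM in Ino80-low wells.

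Among SWI/SNF genes, Smarca4, Smarcc1 and Smarce1 were higher, Arid1b was lower, and the other 8 of the 12 measured stayed within 1.5-fold. Smarca4 had 180.1 CPM in Ino80-high wells against 99.1 CPM in Ino80-low wells (0.86), with detection in 63.8% of thinned wells against 46.9%. Smarcc1, a scaffold subunit, had 44.1 CPM against 18.9 CPM (1.22), and 26.9% of thinned Ino80-high wells against 15.8% of Ino80-low wells had a count. Smarce1, an HMG-box subunit, had 70.8 CPM in Ino80-high wells against 38.2 CPM in Ino80-low wells (0.89), with the largest gap in detection of these genes, 47.6% against 26.8%. Arid1b had 7.24 CPM in Ino80-high wells against 15.4 CPM in Ino80-low wells (-1.09), detected in 8.73% against 17.4% of thinned wells, and it was short of the call over all kept wells (-0.55). Smarcd1, below the filter, had 2.11 CPM in Ino80-high wells and 6.42 CPM in Ino80-low wells, and 2.49% against 7.09% of thinned wells had a count. Smarca2 had 68.3 CPM in Ino80-high wells and 88.1 CPM in Ino80-low wells (-0.37) and was detected in 34.7% against 45.3% of thinned wells. The members within 1.5-fold ran from Brd9 (29.4 CPM in Ino80-high wells and 41.0 CPM in Ino80-low wells, -0.48) to Arid1a (15.7 CPM in Ino80-high wells and 12.0 CPM in Ino80-low wells, 0.39), with Smarcd3, Arid2, Pbrm1, Smarcb1 and Smarcc2 between them. Level and detection did not go together for Arid1a, which had a count in 15.2% of thinned Ino80-high wells and 19.5% of Ino80-low wells.

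The CHD and NuRD genes other than Chd1 and Hdac1 were within 1.5-fold. Hdac1 had 16.4 CPM in Ino80-high wells against 7.23 CPM in Ino80-low wells (1.18) with detection in 17.5% against 7.32% of thinned wells, but in the 43 Ino80-high and 78 Ino80-low wells with 25 to 35% mitochondrial counts its log2 ratio was -0.51. Hdac2 had 23.7 CPM in Ino80-high wells and 20.3 CPM in Ino80-low wells. Chd4 had 129.8 CPM in Ino80-high wells and 101 CPM in Ino80-low wells (0.37). The ISWI genes did not differ by 1.5-fold: Smarca5, the ISWI ATPase, had 49.6 CPM in Ino80-high wells and 55.7 CPM in Ino80-low wells, and Bptf, the large NURF subunit, had 70.9 CPM and 63.1 CPM in the same order of groups. With median-of-ratios scaling, Ruvbl1 (0.43) and Smarca4 (0.58) were no longer past 1.5-fold, and 5 members were higher and 3 lower, against 29.1% and 28.9% of all genes. H2afz, Smarcc1, Smarce1 and Chd1 were past 1.5-fold in each of the 11 alternatives.

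**Figure D2:**
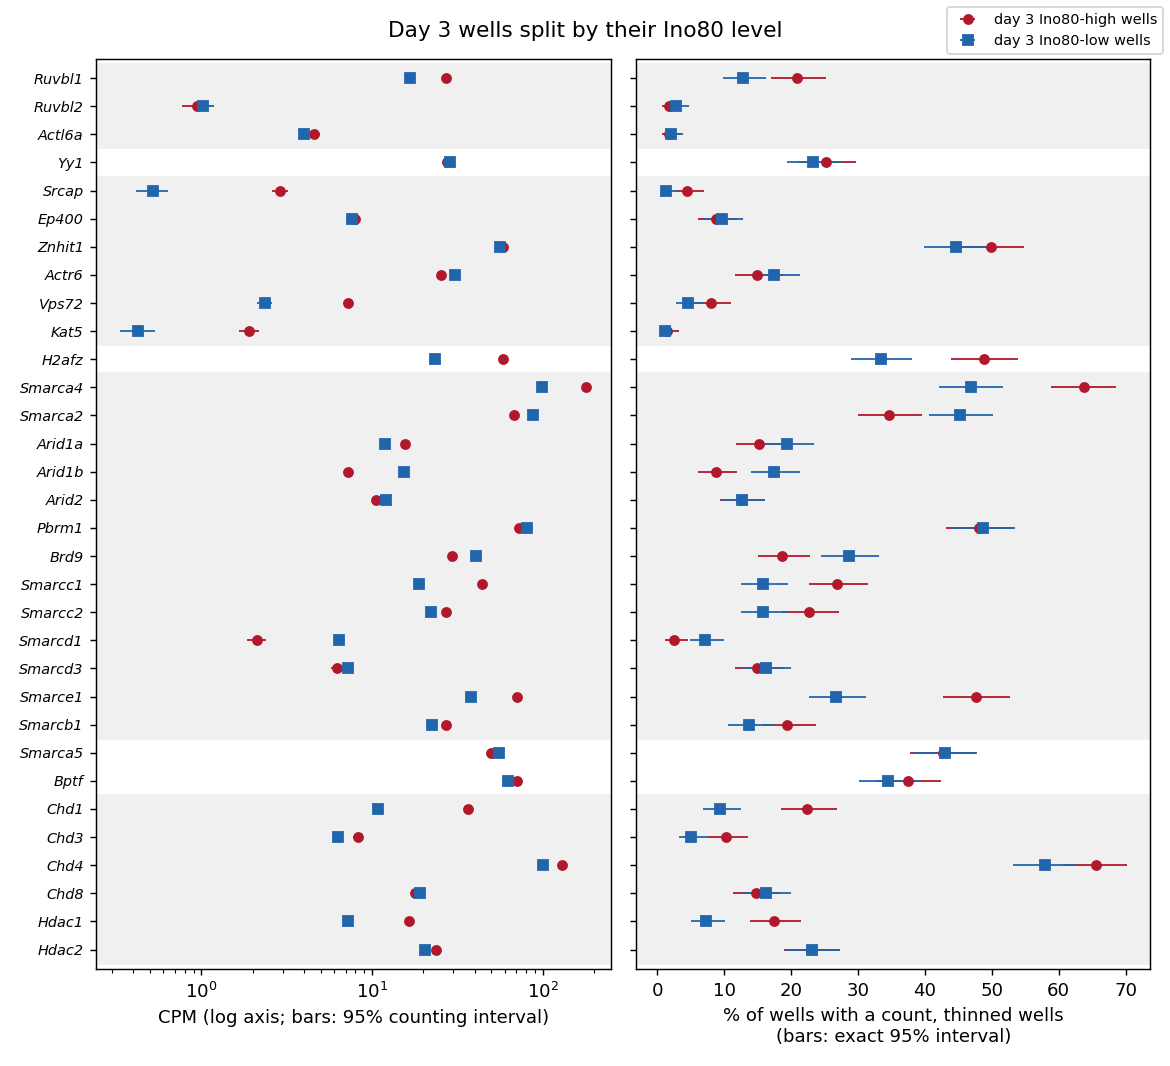
Left, CPM of the 32 genes in day 3 Ino80-high wells (red circles, 405 wells) and Ino80-low wells (blue squares, 440 wells) on a log axis; right, the percentage of wells with a count after thinning to 30000 nuclear counts, with 95% intervals. Chd1, H2afz, Smarcc1, Smarce1, Smarca4 and Hdac1 lie to the right in Ino80-high wells in both panels, and Arid1b and Smarcd1 lie to the left.

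Ratios of summed counts between alternative subunits do not depend on the scaling factor of a group, though a mean over wells would weight them differently. Smarca4 counts over Smarca2 counts were 2.64 in Ino80-high wells (95% counting interval 2.57 to 2.71) against 1.12 in Ino80-low wells (1.10 to 1.15), and 1.20, 1.49 and 1.64 in the compartments of days 1, 2 and 3. Arid1a over Arid1b was 2.17 in Ino80-high wells against 0.779 in Ino80-low wells. Smarcc1 over Smarcc2 was 1.63 in Ino80-high wells against 0.858 in Ino80-low wells, and Hdac1 over Hdac2 was 0.691 against 0.356. Smarcd1 over Smarcd3, the paralogue known from mouse heart and skeletal muscle, was 0.339 in Ino80-high wells against 0.882 in Ino80-low wells. The NuRD pair lay within its counting error: Chd4 over Chd3 was 15.7 in Ino80-high wells against 15.8 in Ino80-low wells, with intervals of 14.7 to 16.8 and 14.9 to 16.9, although the 48 wells in between had 4.79.

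Smarcd1 over Smarcd3 was also lower in the upper than in the lower Ino80 tertile of the other days. It was 0.233 in the upper against 0.712 in the lower tertile of day 1, and 0.691 against 1.19 on day 2. The ratio did not fall in step with Ino80: the middle tertile of day 1 had 1.115, and that of day 2 had 0.688. Day 3 wells with Ino80 in between had 2.67, above both other groups of day 3. Smarcd1 was below the filter in the day 1 tertiles and in the day 3 split. Its own log2 ratio in the day 2 tertiles changed sign in 2 of 10 alternatives. Other genes overlap 49.8% of the last 500 exonic bases of Smarcd3, so the level of Smarcd3 is uncertain. Of the other 4 pairs that differed on day 3, none differed in the same direction beyond its counting intervals in the tertiles of day 1 or day 2. Smarca4 over Smarca2 was 1.26 in the upper Ino80 tertile of day 1 against 1.25 in the lower tertile, and 1.13 in the upper tertile of day 2 against 1.54 in the lower tertile. Arid1a over Arid1b was 0.755 in the upper tertile of day 1 against 0.666 in the lower tertile, and 1.72 in the upper tertile of day 2 against 1.70 in the lower tertile. Hdac1 over Hdac2 was 0.246 in the upper tertile of day 1 against 0.343 in the lower tertile, and 0.220 in the upper tertile of day 2 against 0.538 in the lower tertile. Smarcc1 over Smarcc2 was 0.875 in the upper tertile of day 1 against 1.26 in the lower tertile, and 1.42 in the upper tertile of day 2 against 1.40 in the lower tertile. Chd4 over Chd3 was 29.5 in the upper tertile of day 1 against 22.5 in the lower tertile, and 22.4 in the upper tertile of day 2 against 10.5 in the lower tertile.

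On days 1 and 2, wells of a library were ranked by Ino80 and the upper tertile was compared with the lower. On day 1 (171 wells each, Ino80 at 5082 against 1266 CPM), 13 of 28 members measured were at least 1.5-fold higher in the upper tertile, 46.4%, against 35.2% of all 8227 genes, and 2 were lower, against 13.3%. On day 2 (209 wells each, Ino80 at 8499 against 2206 CPM), 12 of 28 were higher, 42.9%, against 36.2% of all 8299 genes, and 2 were lower, against 11.9%. The median member stood at 0.53 on day 1 and 0.51 on day 2, against 0.26 and 0.31 for all genes. With median-of-ratios scaling the split was 10 higher and 4 lower on day 1, against 25.2% and 23.2% of all genes, and 7 higher and 6 lower on day 2, against 23.2% and 22.9%. With the total of all counts, day 2 turned to 4 members higher and 5 lower, against 14.9% and 29.5% of all genes. The median mitochondrial share was 43.9% in the upper against 39.0% in the lower tertile on day 1, and 48.8% against 27.3% on day 2. The tertiles of day 1 lay in different clusters, with 67.8% of the upper tertile in the main cluster of day 2 and 77.8% of the lower tertile in the main cluster of day 1, and the atrial marker sum was 4368 CPM in the upper tertile against 12470 CPM in the lower tertile (0 of 8 markers at 0 in either). The T or NK cell marker sum was 11.1 CPM in the upper against 141 CPM in the lower tertile of day 1. The ventricular sum (134100 against 105800 CPM) and the erythroid sum (60.3 against 26.65 CPM) were higher in the upper tertile. The part of these differences in the counts was not tested.

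Chd1 was past 1.5-fold in every one of the 3 within-library splits. Of all genes measured, 35.2%, 36.2% and 39.2% were at least 1.5-fold higher in the splits of days 1, 2 and 3. The share of all genes higher in all 3 was not computed, so whether Chd1 stands out was not tested. On day 1, Chd1 had 37.2 CPM in the upper tertile against 10.9 CPM in the lower tertile (1.77). It was detected in 19.5% against 8.54% of thinned wells, with intervals over wells that just overlap (13.8 to 26.3% and 4.75 to 13.9%). On day 2 it had 36.3 CPM in the upper against 16.9 CPM in the lower tertile (1.10), but detection was close, 17.3% against 13.5% of thinned wells, and 1 well held 30.6% of the counts of the upper tertile. Without the leading well of each side, the log2 ratio on day 2 was 0.86 and that on day 1 was 1.73. Over all alternatives the Chd1 log2 ratio lay between 0.97 and 3.50 on day 1, 0.64 and 1.29 on day 2, and 1.38 and 1.86 on day 3.

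Chd4, Pbrm1 and Bptf were higher in the upper tertile on both days and within 1.5-fold on day 3. The share of all genes higher on both days was not computed. Chd4 here had 343 CPM in the upper tertile of day 1 against 178 CPM in the lower tertile (0.94), and 231 against 137 CPM on day 2 (0.75). Pbrm1 had 174 against 90.3 CPM on day 1 (0.95) and 210.3 against 119 CPM on day 2 (0.82), upper tertile first. Bptf had 133 against 67.0 CPM on day 1 (0.98) and 128 against 76.3 CPM on day 2 (0.74), in the same order. Ep400, Arid2 (the PBAF subunit) and Smarcc2 (a scaffold subunit) were likewise called higher on days 1 and 2, by 0.80, 1.72 and 0.88 on day 1 and by 1.10, 0.61 and 0.90 on day 2. On day 2 they did not hold over all kept wells, where Ep400 stood at 0.05, Arid2 at -0.51 and Smarcc2 at 0.54, and Arid2 and Smarcc2 were each past 1.5-fold in 6 of 10 alternatives. Smarcc2 turned to -0.68 in day 2 wells with 25 to 35% mitochondrial counts. On day 1 each was past 1.5-fold in 9 of 10 alternatives. The calls of Chd4, Pbrm1 and Bptf on day 2 were lost with median-of-ratios scaling (0.44, 0.51 and 0.43) and with the total of all counts (0.29, 0.36 and 0.28).

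Single days differed for other members. Chd8 was higher in the upper tertile on day 1 (26.5 against 10.1 CPM, 1.40), with 25.1 CPM against 33.0 CPM on day 2. Smarcb1 was higher in the upper tertile on day 2 (38.5 against 16.2 CPM, 1.25), with 11.0 CPM against 9.98 CPM on day 1. Arid1a and Smarcc1 were called on day 2 (1.05 and 0.92) and stood at 0.43 and 0.36 on day 1. Actl6a, Yy1, Smarca4, Smarca2 and Smarcd3 were called on day 1 (1.02, 0.95, 0.63, 0.62 and 0.98) and not on day 2, where Actl6a was below the filter. Of these, Smarca2 was past 1.5-fold in 3 of 10 alternatives, and Smarca4 in 7, with its sign turned in wells with 25 to 35% mitochondrial counts (-0.49). In those wells Actl6a (0.07), Yy1 (0.02) and Smarcd3 (0.09) were near 0, and Actl6a was also short of the call as a mean of per-well CPM (0.17). Smarca5 and Arid1b were called on day 2 (0.74 and 1.03), and Arid1b turned to -0.20 in such wells, as did Smarcc1 (-0.45). H2afz went the other way from day 3: it had 20.5 CPM in the upper tertile of day 1 against 39.0 CPM in the lower tertile (-0.93), and 29.2 CPM against 40.6 CPM on day 2 (-0.47). Ruvbl1 had 13.4 CPM in the upper tertile of day 1 against 23.6 CPM in the lower tertile (-0.82), and 16.2 CPM against 16.5 CPM on day 2. The lower tertile of day 2 had more Hdac1 (17.3 CPM, against 9.97 CPM in the upper tertile, -0.79) and more Smarcd1 (9.54 CPM, against 6.06 CPM in the upper tertile, -0.65). Both signs turned in wells with 25 to 35% mitochondrial counts (Hdac1 0.95, Smarcd1 1.11), and that of Smarcd1 also turned over all kept wells (0.13).

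**Figure D3:**
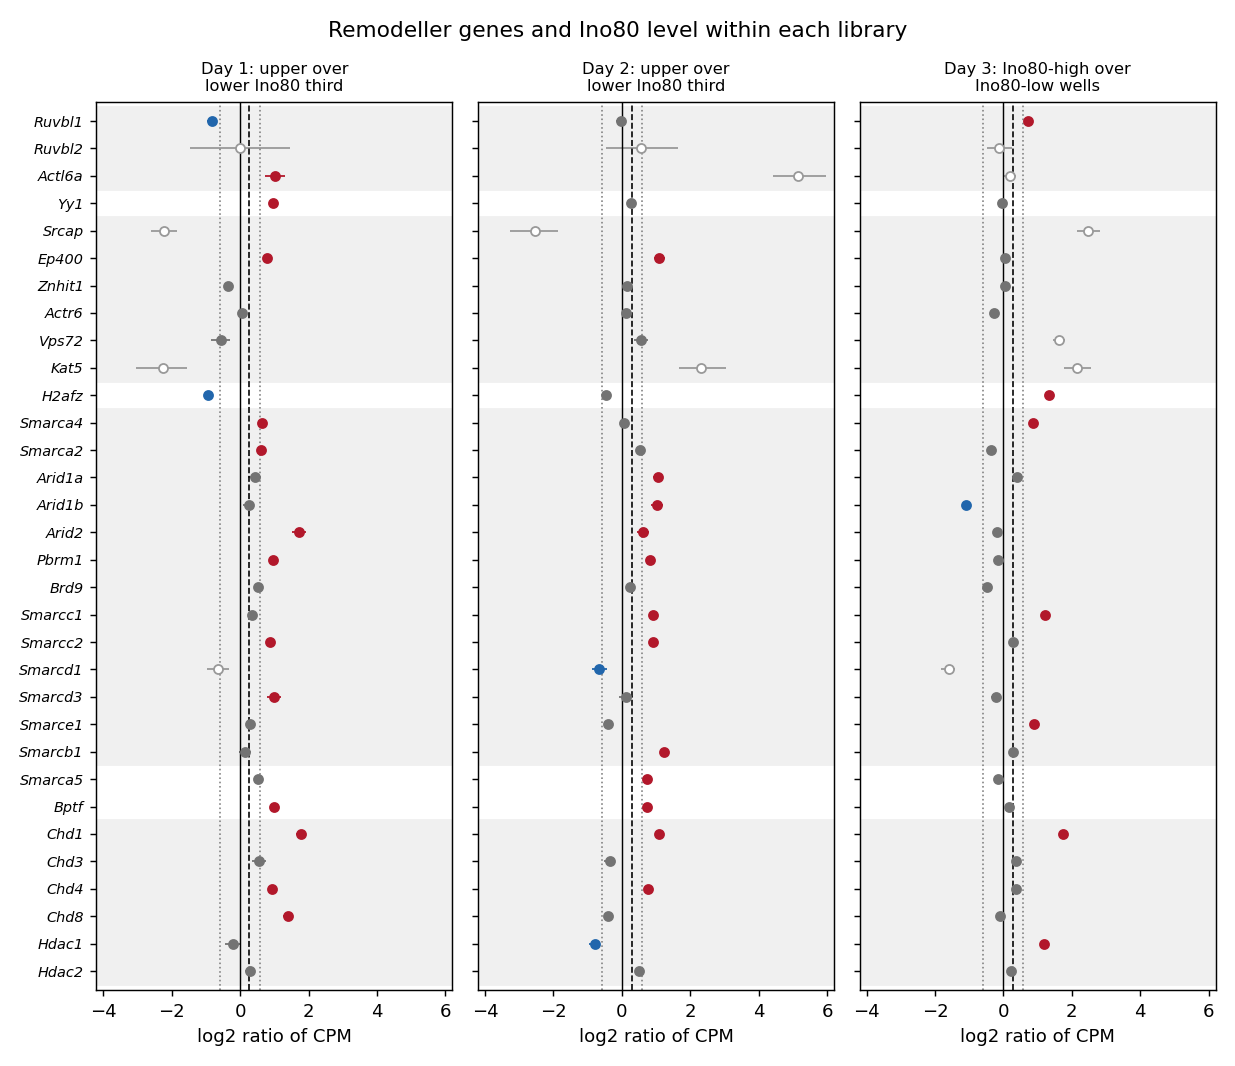
Log2 ratio of CPM for the 32 genes between upper and lower Ino80 tertiles of day 1 and of day 2, and between Ino80-high and Ino80-low wells of day 3, with 95% counting intervals; dashed lines mark the median of all genes, dotted lines 1.5-fold, filled points genes that passed the filter, red higher and blue lower. Chd1 is red in all 3 panels, while H2afz and Ruvbl1 are blue on day 1 and red on day 3.

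Set against the Ino80-low wells of day 3, the group with the lowest summed Ino80 level, the 2 earlier days were compared across libraries. Both comparisons share those wells with each other and with the day 3 split. In day 1 against Ino80-low wells, 6 of 28 members were higher, against 31.1% of all 7858 genes, and 1 was lower, against 10%. In day 2 against Ino80-low wells, 16 of 27 members were higher, 59.3%, against 43% of all 8040 genes, and 1 was lower, against 8.91%. The day 2 count depended on the scaling: it was 6 higher and 3 lower with the total of all counts, against 22.2% and 19.3% of genes, and 4 higher and 4 lower with median-of-ratios scaling, against 22.1% and 21.3%. For day 1 the same scalings gave 4 higher and 1 lower, against 14.3% and 22.2% of genes, and 5 higher and 1 lower, against 19.8% and 18.0%.

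Chd1 had 28.7 CPM on day 1 and 25.2 CPM on day 2, against 10.8 CPM in Ino80-low wells, log2 ratios of 1.41 and 1.22. Smarcc1 had 38.5 CPM on day 1 and 57.2 CPM on day 2, against 18.9 CPM in Ino80-low wells (1.02 and 1.59). Ep400 (1.17 and 1.08), Chd4 (1.23 and 0.90) and Chd3, the minor NuRD ATPase (0.69 and 0.89), were also called on both days. Smarcb1 was lower on day 1 (10.1 against 22.3 CPM, -1.14) and close on day 2 (21.6 against 22.3 CPM, -0.05). Arid1b was lower on day 2 (9.84 against 15.4 CPM, -0.64). In wells with 25 to 35% mitochondrial counts the day 1 values of Smarcc1 and Chd3 changed sign (-0.24 and -1.01). On day 1, 8 of 29 members were then lower than in Ino80-low wells, against 26.2% of all genes. The day 2 value of Chd3 turned there too (-0.64), and its calls were lost with the total of all counts (0.33 on day 1 and 0.51 on day 2) and with median-of-ratios scaling (0.42 and 0.44). The day 2 calls of Chd4 and Ep400 were lost in those wells (0.21 and 0.23), that of Chd1 as well (0.47), and Chd4 also with both scalings (0.52 and 0.45).

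**Figure D4:**
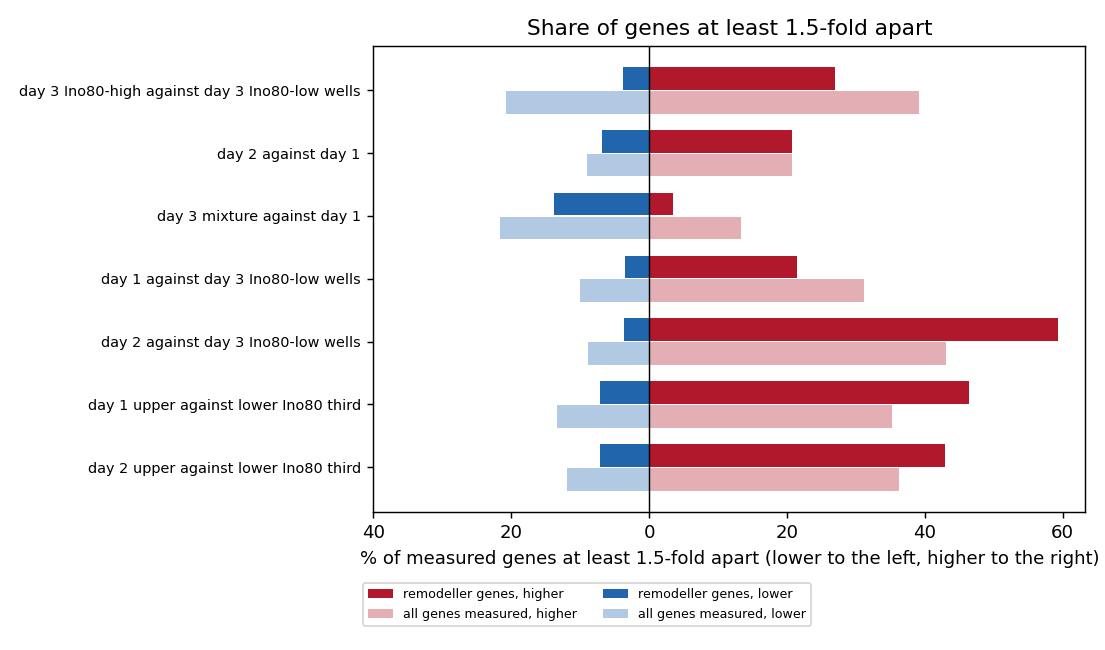
Percentage of genes at least 1.5-fold higher (right, red) or lower (left, blue) in each of the 7 comparisons, for the remodeller genes (dark bars) and for all genes measured (pale bars). The dark bar is the longer one on the higher side for day 2 against Ino80-low wells and for the upper tertiles, and the shorter one for day 3 Ino80-high against Ino80-low wells.

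The other subunits of the same complexes, 52 genes listed by complex, were looked at beside the members. In day 3 Ino80-high against Ino80-low wells, 16 of 40 measured were higher, 40%, close to the 39.2% of all genes, and 5 were lower, 12.5%, against 20.7% of all genes. The largest ratio was that of Morf4l2, a TIP60-p400 subunit, with 65.6 against 10.5 CPM (2.65). Yeats4, an acetyl-histone reader of SRCAP and TIP60-p400, had 56.6 against 20.02 CPM, and Epc1, a TIP60-p400 scaffold, had 35.6 against 14.1 CPM (1.33). Of the 13 genes listed for SRCAP and TIP60-p400, 5 were higher and 0 lower. These 13, and so the 52, count the histone variant gene H2afv, a second H2A.Z gene, with the subunits. For SWI/SNF, 4 of 5 measured were higher, among them Phf10 at 20.8 against 6.55 CPM (1.67), a PBAF subunit. NuRD subunits went both ways, with Gatad2a (1.58) and Mta2 (1.27) higher and Mta3 lower (-1.07, 4.49 CPM in Ino80-high wells against 9.44 CPM in Ino80-low wells). ISWI partners were split, with Baz1a (1.06), Baz2a (0.86) and Pole3 (0.84) higher and Cecr2 (-1.28), Chrac1 (-0.90) and Rsf1 (-0.68) lower. Of the other CHD ATPases, Chd1l (1.05) and Chd7 (0.65) were higher and Chd6 (-0.84) was lower.

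In day 2 against day 1, 3 of 44 other subunits measured were higher, 6.82%, against 20.7% of all genes, and 7 were lower, 15.9%, against 9.06%, the lowest being Cecr2 at 3.43 CPM on day 2 against 10.8 CPM on day 1 (-1.65). In the day 3 mixture against day 1, 0 of 41 were higher, against 13.4% of all genes, and 4 were lower, 9.76%, against 21.6%, led by Trrap, the TIP60-p400 scaffold kinase homologue, at 6.38 CPM against 28.1 CPM (-2.14). In the upper against the lower Ino80 tertile, 18 of 43 were higher on day 1, 41.9%, against 35.2% of all genes, and 2 were lower, against 13.3%. On day 2, 13 of 42 were higher, 31.0%, below the 36.2% of all genes, and 2 were lower, against 11.9%. Bcl7a of SWI/SNF (1.42 and 2.83), Mrgbp of TIP60-p400 (2.27 and 1.90), Baz1b (0.83 and 0.91), Baz2a (1.60 and 1.00), Chd7 (0.68 and 1.41) and Mta2 (1.17 and 1.23) were higher on days 1 and 2, and Meaf6 (-0.83 and -3.12) and Mta3 (-1.82 and -1.25) were lower on both days. Of these, Baz2a, Chd7 and Mta2 were also higher in Ino80-high wells of day 3, and Mta3 was also lower. The share of all genes called alike across the splits was not computed. The calls of the other subunits rest on the main scaling only. Whether they hold with the total of all counts or median-of-ratios scaling was not tested.

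Members were also compared across classes of wells named by their markers. The share of all genes that differ between classes was not computed. Whether the members differ more or less than other genes was thus not tested. The compartment of this comparison leaves out atrial-like wells. Only H2afz among the 32 was at least 1.5-fold higher in macrophage-like wells in every library, with 86.2, 102 and 99.96 CPM on days 1, 2 and 3, where compartment wells had 28.9, 37.5 and 37.6 CPM. Ep400 was the one member higher in fibroblast-like wells in every library, with 25.7, 26.5 and 15.3 CPM, where compartment wells had 15.5, 16.3 and 8.29 CPM. H2afz in fibroblast-like wells stood at 58.2, 46.2 and 123 CPM on days 1, 2 and 3. In erythroid-like wells (13, 24 and 13 wells), Chd1 had 1.05, 1.68 and 5.35 CPM, where compartment wells had 28.6, 25.2 and 21.1 CPM, and Ruvbl1 and Smarca5 were lower too in all 3 libraries. The low Chd4 value of day 3 was also seen outside the compartment: macrophage-like wells had 213, 209 and 103 CPM and fibroblast-like wells 203, 189.7 and 118 CPM on days 1, 2 and 3. The step from day 1 to day 2 differed by class. Chd4 had 199 and 115 CPM on those days in endothelial-like wells, 152 and 160 CPM in erythroid-like wells, and 164 and 214 CPM in endocardial-like wells. Smarcb1 had 19.6, 27.8 and 15.5 CPM in macrophage-like wells and 24.5, 23.3 and 24.2 CPM in fibroblast-like wells. Its lower value on day 1 was also seen in endothelial-like wells, with 8.92 and 16.9 CPM on days 1 and 2, and in endocardial-like wells, with 6.66 and 20.9 CPM. Whether RNA shared between wells adds to these values was not tested.

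**Figure D5:**
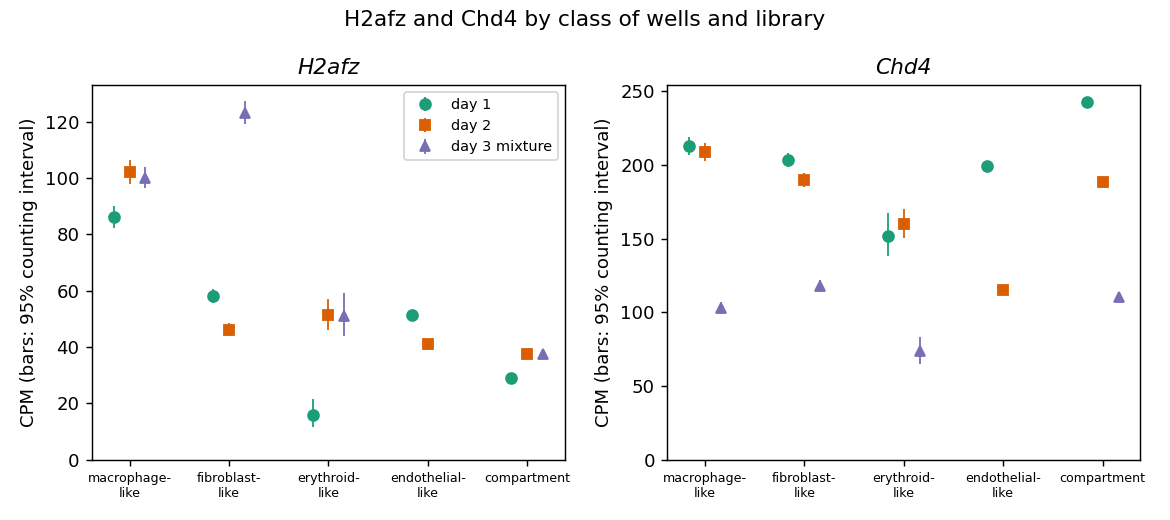
CPM of H2afz (left) and Chd4 (right) by class of wells and library, with 95% counting intervals; classes with fewer than 10 wells in a library are not drawn. H2afz is at least 1.5-fold higher in macrophage-like wells than in the compartment in every library, and Chd4 is lowest on day 3 in macrophage-like, fibroblast-like and erythroid-like wells and in the compartment.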

How the data were processed

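PolyA RNA of single mouse heart cells was sequenced from iCELL8 nanowells as Nextera XT libraries, per the labels. Deposited values are raw counts of reads for each gene in each well, made with cutadapt, STAR and featureCounts on mm10, per the submitters' processing notes; versions, annotation, strand and the handling of duplicates were not given in the sources used here.

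Wells with at least 1000 counts and 300 genes were kept (18 left out), symbols came from a gene-name table (55141 of 55401 IDs matched), and wells were clustered in scanpy 1.11.5 (2000 variable genes, 30 components, 15 neighbours, Leiden resolution 0.5). Clusters were named from at least 3 fixed markers at least 2-fold up at 20 CPM; no doublet caller was run, since wells with 1 live cell were selected by imaging, per the labels. Counts were summed per group and divided by the nuclear-encoded total. CPM have exact Poisson and log2 ratios and shares exact Clopper-Pearson 95% intervals. In ratios, 0 counts were replaced by a floor of 3. Reads are not independent molecules, so intervals of CPM and ratios cover counting error only. Those of shares take wells as trials, and wells are not replicates.

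With 1 library per group no test was made. All 32 members are described, and of the other-subunit lists those at least 1.5-fold apart may be named. The members, lists, Ino80 limits and comparisons were chosen with earlier results of these data known. The calculation was tested on simulated data. Alternatives in scaling, weighting of wells, filter and choice of wells are given in the closing section.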

Additional observations from a re-analysis of the deposited data

Results flagged for a closer look

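4 members were past 1.5-fold in opposite directions in Ino80 splits of different libraries, and the difference between the splits was not tested. Of all genes measured, 35.2%, 36.2% and 39.2% were higher in the splits of days 1, 2 and 3, and 13.3%, 11.9% and 20.7% lower. The share of all genes called in opposite directions was not computed, so whether these members reverse more often than other genes was not tested. Ruvbl1 had a log2 ratio of 0.71 in day 3 Ino80-high against Ino80-low wells and of -0.82 in the upper against the lower Ino80 tertile of day 1. H2afz had 1.34 in the day 3 split and -0.93 in the day 1 tertiles. Arid1b had -1.09 in the day 3 split and 1.03 in the upper against the lower tertile of day 2. Hdac1 had 1.18 in the day 3 split and -0.79 in the day 2 tertiles, and both Hdac1 values changed sign in wells with 25 to 35% mitochondrial counts, to -0.51 and 0.95.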

How the results depend on the processing

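Of 74 calls of members, 58 kept their sign and 19 stayed past 1.5-fold in every alternative run. Counts that moved by over 1.5 times are given by setting, with the share of all genes in brackets. From 23 to 31 members were measured, by comparison and setting. With the total of all counts, 1 member was lower in day 2 against day 1 (7.82%). In the day 3 mixture against day 1, 4 were higher and 2 lower (28.5% and 7.86%). In day 2 against Ino80-low wells, 6 were higher and 3 lower (22.2% and 19.3%), and in the day 2 tertiles 4 and 5 (14.9% and 29.5%). With median-of-ratios scaling, 3 were lower in the day 3 split (28.9%), and 4 higher and 4 lower in day 2 against Ino80-low wells (22.1% and 21.3%). With that scaling, 4 were lower in the day 1 tertiles (23.2%), and 7 higher and 6 lower in the day 2 tertiles (23.2% and 22.9%). With the mean of per-well CPM, 2 were lower in the day 3 split (20.4%) and 0 in day 2 against day 1 (8.94%). With that mean, 0 were lower in day 2 against Ino80-low wells (8.49%) and 1 in the day 1 tertiles (13.7%). With a filter of 1 CPM, 2, 4 and 5 were lower in the day 3 split, day 2 against day 1 and the day 1 tertiles (21.5%, 15% and 19.8%). With 10 CPM, 1 was lower in day 2 against day 1 (6.84%) and 1 in the day 2 tertiles (9.92%). Over all kept wells, 0 were lower in the day 3 split (19.3%) and 1 in day 2 against day 1 (6.95%). Over these wells, 0 were lower in day 2 against Ino80-low wells (7.48%) and 1 in the day 2 tertiles (12.6%). In the day 3 mixture against day 1, 2 were higher (10.1%). Signs turned over these wells for Actl6a in day 2 against day 1 (0.39) and for Arid2 (-0.51) and Smarcd1 (0.13) in the day 2 tertiles. In wells with 25 to 35% mitochondrial counts, 11 of 28 were higher and 4 lower in the day 3 split (41.8% and 25.8%). In the day 3 mixture against day 1, 9 of 29 were higher and 2 lower (28.6% and 23.5%). Against Ino80-low wells, 8 were lower on day 1 (26.2%), and 4 higher and 3 lower on day 2 (32.4% and 24.8%). In the tertiles, 6 were lower on day 1 (25.6%) and 5 on day 2 (26.8%). Signs turned in wells with 25 to 35% mitochondrial counts for Hdac1 in the day 3 split (-0.51), Brd9 in day 2 and in the day 3 mixture against day 1 (0.26 and 0.39), Smarcc1 and Chd3 in day 1 against Ino80-low wells (-0.24 and -1.01), Arid1a, Bptf and Chd3 in day 2 against Ino80-low wells (-0.34, -0.35 and -0.64), Smarca4 in the day 1 tertiles (-0.49), and Arid1b, Smarcc1, Smarcc2, Smarcd1 and Hdac1 in the day 2 tertiles (-0.20, -0.45, -0.68, 1.11 and 0.95). Those wells number 26 to 132 per group. Without the leading well of each gene, 1 was lower in day 2 against day 1 (8.24%), 0 in day 2 against Ino80-low wells (8.85%) and 4 in the day 2 tertiles (10.8%). A split at 2000 and 50 CPM gave 2 lower on day 3 (20.6%). Chosen after seeing the data, leaving out atrial-like wells and keeping only the main clusters each gave 5 lower in the day 1 tertiles (14.3% and 14.1%). The cause of these changes was not tested. No paired analysis was possible because each group is 1 library and the labels carry no replicate numbers. Depth limits Ruvbl2, Srcap and Kat5, which had 50 to 544 counts per library.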
